A study of Drosophila melanogaster with 6 samples.

Results

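Small nucleolar ribonucleoproteins (snoRNPs) and the nucleolar factors that build ribosomes were followed here through 10 genes of Drosophila melanogaster, chosen by name: Nop60B, NHP2, Non1, Fib, Nop56, nop5, Nopp140, Nle, mod and pit. The choice was made with earlier results of these data known. Of the 10 genes, 8 were measured under a single gene symbol, among 11303 features tested. The feature annotated to pit also carries the symbol of another gene, and no feature carries nop5 as its single symbol, so neither is counted among the measured members. Levels come from 1-colour arrays, with total RNA labelled by biotin. The tissue was the wing imaginal disc, a larval epithelium that forms the wing and dorsal thorax, taken 7 days after the transgenes were induced. In 3 samples an apterous driver ran both a Yki transgene and an RNA interference construct that targets pan (ap>YAP/Yki+dTcf/Pan-RNAi, below Yki + pan RNAi), and in the other 3 it ran Yki alone (ap>YAP/Yki, below Yki). Yki, the fly YAP, is the transcriptional coactivator through which Hippo signalling controls growth. The product of pan, dTcf, binds DNA and carries Wg signals to target genes. All 6 samples thus share the Yki transgene, and the comparison asks which transcripts differ when dTcf is depleted in such discs. The apterous driver is active in the dorsal compartment only, so each disc also holds ventral cells without the transgenes. The labels name neither discs without Yki nor discs with another hairpin.

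Ribosomal RNA is transcribed by RNA polymerase I in the nucleolus and is modified there by snoRNPs, in which a short guide RNA pairs with the site to be changed. H/ACA snoRNPs convert uridine to pseudouridine, and C/D snoRNPs methylate the ribose. Most guide RNAs of flies lie in introns of other genes and are released from the spliced intron. The small subunit processome then folds and cuts the precursor of the small subunit, and a separate set of GTPases, helicases and scaffold proteins matures the large subunit. In growing imaginal discs this machinery sets the supply of ribosomes.

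Values are deposited log2 levels, and a change is Yki + pan RNAi minus Yki with the standard error of the limma fit (n = 3 arrays per group throughout). A gene is said to have fallen or risen at a limma adjusted p under 0.05. With so few arrays, precision is limited. Of all features, 13.4% fell and 12.1% rose by this rule, with a median change of 0.03. After the arrays were centred on their medians, 9.57% fell and 18.5% rose, with a median of 0.09. Array medians were 8.410 to 8.515. Nothing in the labels says that the samples came from separate crosses, so the variation behind the p-values is that of these arrays and could be technical. In whole discs, fewer cells of a type and less RNA per cell cannot be told apart. Levels of different genes are not set against each other, because each feature binds its transcript differently.

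Yki + pan RNAi discs held less transcript of the H/ACA enzyme and its partner, of the C/D scaffold gene Nop56, of a snoRNP chaperone and of a nucleolar RNA-binding protein, while the large subunit GTPase gene Non1 was higher. Of the 8 measured genes, 5 fell (62.5%, against 13.4% of all features) and 1 rose (12.5%, against 12.1%). Because the members were chosen with earlier results of these data known, these shares do not test the set. All 8 changes were under 2-fold, while 1.53% of all features were both called and changed by at least 2-fold. The groups did not overlap for 7 of the 8, with 6 lower and 1 higher in Yki + pan RNAi discs. Of all features, 44.9% did not overlap between the groups, 21.6% lower and 23.4% higher. The median change of the 8 was −0.25, or −0.19 with each array centred on its median. In that centred fit 3 fell and 1 rose, while 9.57% of all features fell and 18.5% rose. Without Yki replicate 2 or without Yki replicate 3, 3 fell, while 9.08% and 8.86% of all features fell in those fits.

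Among the H/ACA genes, Nop60B encodes the pseudouridine synthase, the fly dyskerin. Its level was 9.45, 9.41 and 9.49 in Yki + pan RNAi discs, against 9.88, 9.79 and 9.90 in Yki discs. All Yki + pan RNAi arrays were below all Yki arrays, and the gap between the groups was wider than the range within either. Nop60B fell by 0.41 ± 0.05 on the log2 scale, a level 24.6% lower (limma adjusted p = 0.00257). NHP2, which encodes an RNA-binding core subunit of the same particle, was at 9.04, 9.02 and 9.07 in Yki + pan RNAi discs, against 9.38, 9.44 and 9.38 in Yki discs. The groups again lay apart, with a spread of 0.02 (SD) in Yki + pan RNAi discs and 0.04 in Yki discs. Its change was −0.36 ± 0.04, or 21.9% lower (limma adjusted p = 0.00265). Both calls held when any 1 array was left out.

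The other core subunits of the H/ACA particle did not pass. Nop10, a small structural subunit that contacts the synthase, was at 9.02, 9.12 and 8.87 in Yki + pan RNAi discs, against 9.35, 9.14 and 9.33 in Yki discs. Its groups lay apart only narrowly, since replicate 2 of Yki was close to replicate 2 of Yki + pan RNAi. The change was −0.27 ± 0.08 (limma adjusted p = 0.0578), and the adjusted p was 0.0468 without Yki replicate 2, 0.0407 with dim features left out and 0.0363 with a variance trend on intensity. Gar1, which encodes a subunit that helps the particle bind and release its substrate, averaged 7.28 ± 0.06 in Yki + pan RNAi discs and 7.22 ± 0.08 in Yki discs (SD). Those groups overlapped (0.06 ± 0.06, limma adjusted p = 0.476). Thus 2 of 4 H/ACA core genes fell (50%, against 13.4% of all features) and 0 rose (against 12.1%). The median change was −0.31, and limma gave 3 with an unadjusted p under 0.05. An unadjusted p under 0.05 was found for 39.5% of all features, and the counts at that threshold are to be read against it.

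**Figure D1:**
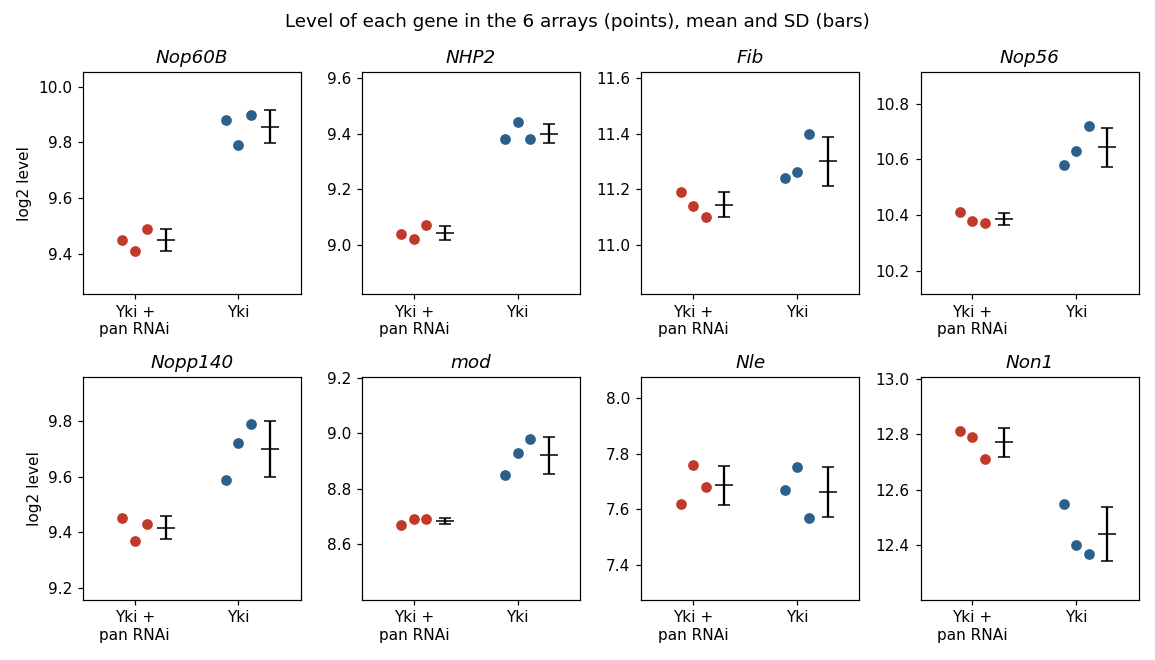
Log2 level (vertical axes, each 0.8 wide) of the 8 measured genes in Yki + pan RNAi discs (red, left) and Yki discs (blue, right), 1 point per array, with the mean and SD of 3 arrays beside each group. The groups lie apart in every panel except Nle, and only Non1 is higher in Yki + pan RNAi discs.

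For the C/D particle, Fib encodes fibrillarin, the methyltransferase. Fib was at 11.19, 11.14 and 11.10 in Yki + pan RNAi discs, against 11.24, 11.26 and 11.40 in Yki discs. The Yki + pan RNAi arrays were all lower, but replicate 3 of Yki stood above the other Yki arrays and much of the difference rested on it. The change was −0.16 ± 0.06 and did not pass (limma adjusted p = 0.097). It was −0.10 without Yki replicate 3, and the variance trend gave an adjusted p of 0.0464. Nop56, which encodes a scaffold protein of the particle, was at 10.41, 10.38 and 10.37 in Yki + pan RNAi discs, against 10.58, 10.63 and 10.72 in Yki discs. The groups lay apart and Nop56 fell by 0.26 ± 0.05 on the log2 scale, or 16.3% (limma adjusted p = 0.0132), a call that held without any 1 array. The gene hoip encodes the protein that first binds the guide RNA and that also serves in the spliceosome. Its level was 7.68, 7.59 and 7.38 in Yki + pan RNAi discs, against 7.83, 7.89 and 8.04 in Yki discs. The groups did not overlap and hoip fell by 0.37 ± 0.09 (limma adjusted p = 0.0273). That call was lost without replicate 2 or 3 of either group (adjusted p = 0.0506 to 0.0825) and after quantile normalization (adjusted p = 0.0501). Of the 3 measured C/D core genes, 2 fell (66.7%, against 13.4% of all features) and 0 rose (against 12.1%). The median change was −0.26, and limma gave 3 with an unadjusted p under 0.05.

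Averaged over their measured genes, the 2 classes of particle moved by similar amounts. The mean of the 4 H/ACA core genes changed by −0.24 and that of the 3 C/D core genes by −0.26. The H/ACA mean was 8.71, 8.70 and 8.67 in Yki + pan RNAi discs, against 8.97, 8.87 and 8.97 in Yki discs, and the C/D mean was 9.76, 9.70 and 9.62 in Yki + pan RNAi discs, against 9.88, 9.93 and 10.05 in Yki discs. The difference between the class means, taken within each array, overlapped between the groups, with an SD of 0.05 in Yki + pan RNAi discs and 0.09 in Yki discs. Its change was 0.02, with a range of −0.02 to 0.07 when 1 array was left out and −0.04 without hoip, all smaller than the SD in Yki discs. No test was run on these averages, and equal change was not shown. The averages hide a spread within the H/ACA core, since the change of Gar1 was 0.06 and that of Nop60B −0.41.

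Of the 7 genes for snoRNP assembly, 2 fell (28.6%, against 13.4% of all features) and 0 rose (against 12.1%). The median change was −0.15, and limma gave 4 with an unadjusted p under 0.05. Nopp140, which encodes a nucleolar phosphoprotein that binds both classes of snoRNP, was at 9.45, 9.37 and 9.43 in Yki + pan RNAi discs, against 9.59, 9.72 and 9.79 in Yki discs. All Yki + pan RNAi arrays were lower, and the Yki arrays were the more spread out. Nopp140 fell by 0.28 ± 0.06 (limma adjusted p = 0.018). The call ended without Yki + pan RNAi replicate 2 (adjusted p = 0.0563), without Yki replicate 2 (0.0617), without Yki replicate 3 (0.0547) and with each array centred on its median (0.0535). The AAA+ ATPase gene pont, whose product helps to assemble snoRNPs and is also part of chromatin remodelling complexes, was at 10.07, 10.18 and 10.20 in Yki + pan RNAi discs, against 10.44, 10.40 and 10.44 in Yki discs. It fell by 0.28 ± 0.05 (limma adjusted p = 0.0104), and the call held without any 1 array.

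The partner ATPase gene rept was at 8.24 ± 0.01 in Yki + pan RNAi discs and 8.36 ± 0.13 in Yki discs (SD), a change of −0.12 ± 0.07 that did not pass (limma adjusted p = 0.236). Nufip, which encodes an adaptor of C/D assembly, changed by −0.15 ± 0.05 (limma adjusted p = 0.0686, 0.0439 with the variance trend and 0.0405 with dim features left out). The co-chaperone gene spag, whose product works with the products of pont and rept, changed by −0.06 ± 0.05 (limma adjusted p = 0.383). The remaining listed genes were CG10341 (−0.15 ± 0.05, adjusted p = 0.0665) and CG10055 (0.15 ± 0.06, adjusted p = 0.138). The first passed with a variance trend (adjusted p = 0.0467), with dim features left out (0.0389) and without Yki replicate 1 (0.0473), and the second without Yki + pan RNAi replicate 3 (0.04) and with median centring (0.0443).

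The genes for later steps went different ways. The gene mod encodes Modulo, a nucleolar protein that binds RNA and DNA. Its level was 8.67, 8.69 and 8.69 in Yki + pan RNAi discs, against 8.85, 8.93 and 8.98 in Yki discs. The Yki + pan RNAi arrays were nearly equal and all below the Yki arrays. It fell by 0.24 ± 0.05, or 15.1% (limma adjusted p = 0.0157). The call ended without Yki + pan RNAi replicate 1 (adjusted p = 0.0564), Yki replicate 2 (0.056) or Yki replicate 3 (0.0519), and with each array centred on its median (0.0528). Nle encodes Notchless, a WD-repeat protein needed for large subunit maturation that was found as a modifier of Notch signalling. Its level was 7.62, 7.76 and 7.68 in Yki + pan RNAi discs, against 7.67, 7.75 and 7.57 in Yki discs. Those groups overlapped fully, with a change of 0.02 ± 0.07 (limma adjusted p = 0.816). Its change was the smallest of the 8.

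Non1 encodes a nucleolar GTPase of large subunit assembly and was the member that rose. Its level was 12.81, 12.79 and 12.71 in Yki + pan RNAi discs, against 12.55, 12.40 and 12.37 in Yki discs. Every Yki + pan RNAi array was above every Yki array. The rise was 0.33 ± 0.06, or 1.26-fold (limma adjusted p = 0.0103), and was between 0.30 and 0.39 when any 1 array was left out, with an adjusted p of 0.00901 to 0.0425. The level lies toward the top of the deposited range of 2.74 to 14.06.

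The wider pathway was read from 8 lists that hold 79 genes, 75 of them measured, the core and assembly genes above included. Of the 75, 23 fell (30.7%, against 13.4% of all features) and 1 rose (1.33%, against 12.1%), with a median change of −0.14. The gene that rose was Non1. The lists, too, were chosen with earlier results of these data known. Median centring left 14 falls (18.7%, against 9.57% of all features in that fit), then with 4 rises and a median of −0.08. Of all features, 18.5% rose in that fit. The falls numbered 15 without Yki + pan RNAi replicate 1 (20% of the 75, against 8.66% of all features in that fit). They numbered 12 (16%) without Yki replicate 2 or without Yki replicate 3, against 9.08% and 8.86% of all features.

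In the small subunit processome list, 4 of 17 genes fell (23.5%, against 13.4% of all features) and 0 rose (against 12.1%). Limma gave 5 with an unadjusted p under 0.05. The median change was −0.12, against 0.03 for all features, and 16 of the 17 changes were below 0. With median centring 1 gene fell and the median was −0.07. CG4866 fell by 0.39 ± 0.07 (limma adjusted p = 0.00789), and this held without any 1 array. The gene wcd, whose product belongs to the U3 snoRNP, fell by 0.25 ± 0.05 (adjusted p = 0.0166), CG30349 by 0.20 ± 0.04 (adjusted p = 0.019) and bys, the fly bystin, by 0.22 ± 0.06 (adjusted p = 0.0342). These 3 calls ended with median centring. That of wcd also ended without Yki + pan RNAi replicate 1 or Yki replicate 2 or 3, that of CG30349 without any 1 of these or Yki + pan RNAi replicate 3, and that of bys without any 1 array except Yki + pan RNAi replicate 1.

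In the large subunit list, 8 of 25 genes fell (32%, against 13.4% of all features) and Non1 alone rose (4%, against 12.1%). The median was −0.16, and limma gave 13 with an unadjusted p under 0.05. Surf6, a nucleolar protein gene, was at 10.42, 10.42 and 10.47 in Yki + pan RNAi discs, against 10.69, 10.67 and 10.69 in Yki discs. Its groups were each tight and lay apart (−0.24 ± 0.04, limma adjusted p = 0.00828). The gene nclb, which encodes a nucleolar WD-repeat protein, fell by 0.33 ± 0.06 (adjusted p = 0.00872), and CG8545, which RefSeq also lists as NOP2, the name of a ribosomal RNA methyltransferase in yeast, fell by 0.26 ± 0.05 (adjusted p = 0.0111). All 3 calls held without any 1 array. The other 5 genes that fell were RpLP0-like, CG1542, Noc2, CG11583 and Non3, with changes of −0.37 to −0.21. None of these 5 calls held in all 6 fits without an array. That of RpLP0-like held in 5 of the 6, that of CG1542 in 4, that of Noc2 in 3 and those of CG11583 and Non3 in 2 each.

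The last lists cover transcription and trimming of ribosomal RNA. Of 6 RNA polymerase I genes, 1 fell (16.7%, near the 13.4% of all features) and 0 rose (against 12.1%). Limma gave 3 with an unadjusted p under 0.05, and the median change was −0.03 (0.03 with median centring). The subunit gene Polr1H fell by 0.21 ± 0.05 (limma adjusted p = 0.0337), a call lost with median centring, with quantile normalization and without any 1 array except Yki replicate 2. The initiation factor gene Tif-IA changed by −0.01 ± 0.05 (adjusted p = 0.899), while udd, which encodes a factor for ribosomal DNA transcription, changed by 0.18 ± 0.06 (adjusted p = 0.0553). The rise of udd passed in 1 of the 6 fits without an array. With median centring, quantile normalization, the variance trend or dim features left out, 1 gene of this list rose. Of all features, 13.3% to 18.5% rose in those fits. The RNA exosome trims the ends of ribosomal RNA precursors. Of its 10 genes, 3 fell (30%, against 13.4% of all features) and 0 rose (against 12.1%). The median change was −0.12, and limma gave 5 with an unadjusted p under 0.05. The ring subunit genes Mtr3 (−0.24 ± 0.05, adjusted p = 0.0121) and Rrp42 (−0.28 ± 0.05, adjusted p = 0.0125) fell, and these calls held without any 1 array. Rrp46 fell by 0.19 ± 0.05 (adjusted p = 0.0369), a call lost without any 1 array except Yki replicate 3, with median centring (0.0909), with quantile normalization (0.0978) and with the variance trend (0.0697).

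**Figure D2:**
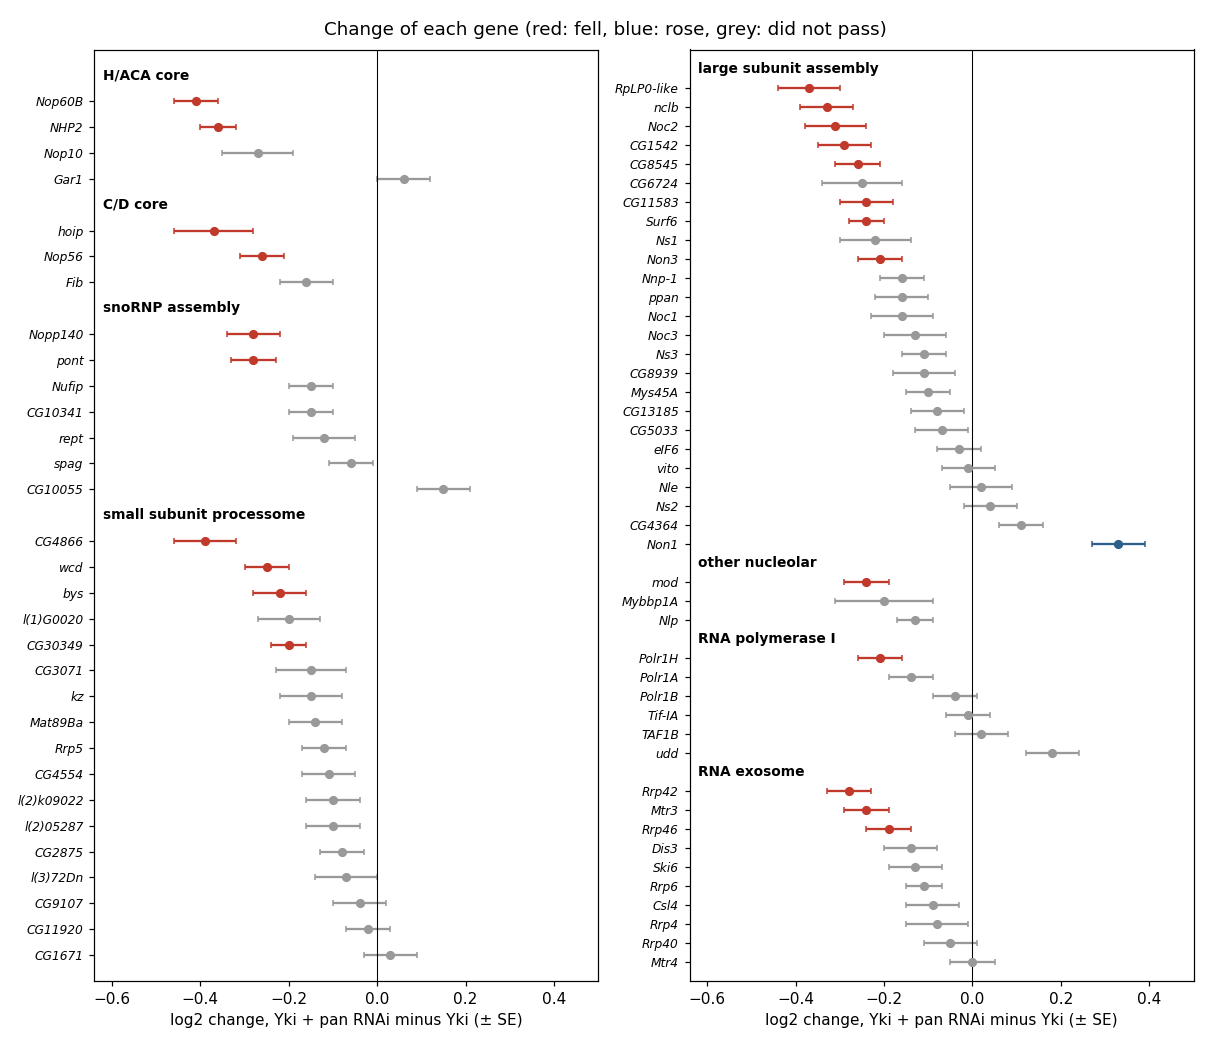
Log2 change, Yki + pan RNAi minus Yki, with its SE (horizontal axis), of the 75 measured protein genes in 8 lists. The 23 genes that fell (red) are spread over every list, and Non1 is the 1 gene that rose (blue).

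The arrays also measured the guide RNAs themselves, with 197 features named for 1 snoRNA. Guides of pseudouridylation, which work in H/ACA particles, carry Psi in their names, and guides of methylation, which work in C/D particles, carry Me, followed by the target RNA and base. Of 92 Psi features, 13 fell (14.1%) and 2 rose (2.17%), with a median change of −0.05. Of 55 Me features, 9 fell (16.4%) and 2 rose (3.64%), with a median of −0.20. With all 6 arrays, both shares of falls were near the 13.4% of all features, and both shares of rises were below the 12.1%. Median centring of the arrays brought the Psi median to 0.00 and the Me median to −0.14. Of the 50 other snoRNAs, 4 fell (8%) and 6 rose (12%, near the 12.1% of all features). Their median change was −0.03, or 0.03 with median centring.

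Per array, the median level of the Psi features was 10.84, 10.79 and 10.70 in Yki + pan RNAi discs, against 10.86, 10.78 and 10.83 in Yki discs. That of the Me features was 8.33, 8.47 and 8.02 in Yki + pan RNAi discs, against 8.78, 8.49 and 8.69 in Yki discs. The Psi medians overlapped between groups, and the Me medians were lower in every Yki + pan RNAi array, although replicate 2 of Yki came within 0.02 of the highest of them. Within the Me guides, the 37 features for 28S ribosomal RNA had a median change of −0.34 (8 fell, 0 rose), and the 16 for 18S had one of −0.12 (1 fell, 2 rose). These counts are to be read against falls of 13.4% and rises of 12.1% among all features. For Psi guides both medians were −0.05, over 58 features for 28S and 34 for 18S. The difference between these classes was not tested. The shares of falls depended on single arrays, above those of all features in some fits and below in others. Without Yki + pan RNAi replicate 2, 11 Me guides (20%) and 15 Psi guides (16.3%) fell, against 10.3% of all features. Me guides had 6 falls (10.9%) without Yki + pan RNAi replicate 3 and without Yki replicate 2, against 10.8% and 9.08%. Psi guides had 9 (9.78%) without Yki + pan RNAi replicate 1, against 8.66%. For Me guides, 4 fell (7.27%, against 8.66% of all features in the same fit) without Yki + pan RNAi replicate 1. Only 2 fell (3.64%) without Yki replicate 1 or without Yki replicate 3, below the 11.3% and 8.86% of all features in those fits. For Psi guides, 7 fell (7.61%) without Yki replicate 1 or 2, against 11.3% and 9.08% of all features, and 4 fell (4.35%) without Yki replicate 3, against 8.86%. Without Yki + pan RNAi replicate 3, 8 Psi guides fell (8.7%, against 10.8%).

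Many guides exist as near-identical copies, whose features can share signal and are not independent. The 92 Psi features name 48 target sites and the 55 Me features 43. With 1 value per site, the median change was −0.05 for Psi and −0.18 for Me sites, and 30 of 48 Psi and 36 of 43 Me sites had a mean change below 0. Such signs depend on array scaling, since median centring brought the median over features to 0.00 for Psi and −0.14 for Me guides. The Me guide pair at G3113 of 28S fell in both copies, snoRNA:Me28S-G3113b by 0.72 ± 0.10 (limma adjusted p = 0.00365) and snoRNA:Me28S-G3113a by 0.57 ± 0.14 (adjusted p = 0.0228). The call of the second copy held in 2 of the 6 fits without an array. The first copy was dim, at 5.44, 5.48 and 5.32 in Yki + pan RNAi discs, against 6.34, 5.97 and 6.11 in Yki discs. The guide snoRNA:Me18S-A1061 fell by 0.57 ± 0.11 (adjusted p = 0.0124). In the other direction, snoRNA:Me18S-G1358b rose by 0.39 ± 0.06 (adjusted p = 0.00576). Among Psi guides, snoRNA:Psi28S-3385b (−0.34 ± 0.06, adjusted p = 0.00703), snoRNA:Psi18S-640b (−0.31 ± 0.05, adjusted p = 0.0071), snoRNA:Psi18S-1295 (−0.38 ± 0.06, adjusted p = 0.00724) and snoRNA:Psi28S-1135a (−0.34 ± 0.07, adjusted p = 0.0152) fell. Apart from the second G3113 copy, these calls held without any 1 array. The guide snoRNA:Me28S-A2634c also fell (−0.42, adjusted p = 0.0222), but not without Yki replicate 1 or 3. Among the other snoRNAs, snoRNA:lola-d (0.53, adjusted p = 0.0163) and snoRNA:gcl-a (0.38, adjusted p = 0.0235) rose, the first not in 3 and the second not in 5 of the 6 fits without an array. A snoRNA of this class that lies in no annotated gene span fell (−0.37, adjusted p = 0.016).

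**Figure D3:**
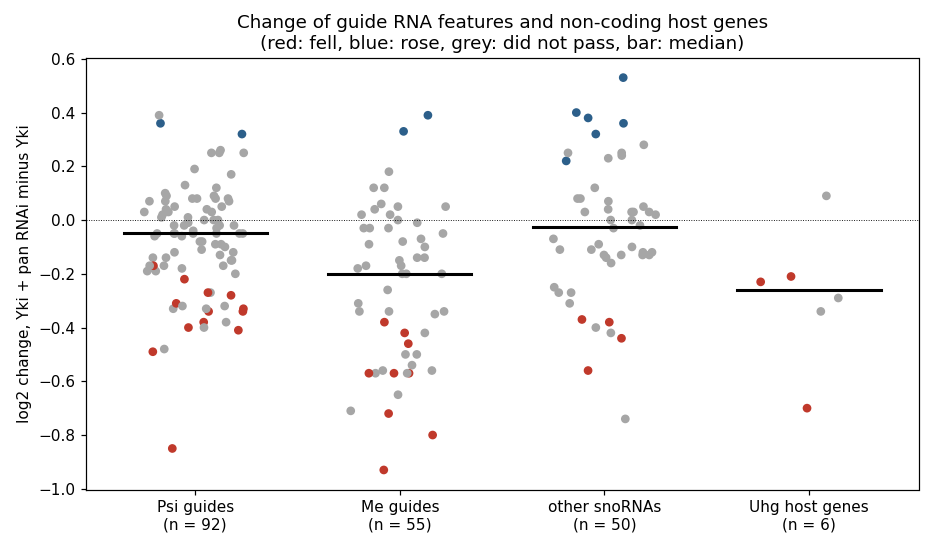
Log2 change, Yki + pan RNAi minus Yki (vertical axis), of 92 Psi guide, 55 Me guide and 50 other snoRNA features and of 6 Uhg host genes, 1 point per feature. Red points fell, blue points rose, grey points did not pass, and the bars are the medians of −0.05, −0.20, −0.03 and −0.26.

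Because guide RNAs lie within other genes, each was paired with the gene whose span in RefSeq Release 6 contains it. Strand was not used, and a feature for an intronic guide may also bind the unspliced host transcript, which was not tested. Of the 197 features, 178 lay in 1 span, 10 in several and 9 in none, and 121 had a single measured host, 38 hosts in all. Across these 38 hosts, measured on the same 6 arrays, the host change and the median change of its guides had a Pearson r of 0.45, and 26 of 38 had the same sign. Of the 8 hosts that fell, 5 had guides with a median change below 0. Of the 15 guides that fell and had a single measured host, 10 lay in a host that did not pass. Only 8 of the 38 hosts fell and 4 rose, so many guides that did not fall also lay in such hosts. These counts were not tested and do not show whether guides moved with their hosts. The Uhg genes are long non-coding transcripts known mainly as carriers of guide RNAs. Of 6 measured, 3 fell (50%, against 13.4% of all features) and 0 rose (against 12.1%). Limma gave 5 with an unadjusted p under 0.05. Uhg7 was at 7.59, 7.59 and 7.67 in Yki + pan RNAi discs, against 8.35, 8.11 and 8.47 in Yki discs. It fell by 0.70 ± 0.09 (limma adjusted p = 0.00345), and this held without any 1 array. Uhg1 and Uhg8 fell by 0.21 ± 0.05 and 0.23 ± 0.06 (adjusted p = 0.0289 and 0.0299), calls that each held in 1 of the 6 fits without an array, without Yki + pan RNAi replicate 3 for Uhg1 and without Yki replicate 2 for Uhg8. Both calls also ended with median centring (adjusted p = 0.0831 for Uhg1 and 0.0785 for Uhg8), which left 1 of the 6 Uhg genes fallen. The 16 guides in Uhg1 had a median change of −0.13, and the 3 in Uhg8 one of −0.08.

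Both snoRNP enzyme genes are themselves hosts. A single snoRNA feature lies within Fib and was at 9.51, 9.43 and 9.19 in Yki + pan RNAi discs, against 9.82, 9.87 and 10.11 in Yki discs. Its groups lay apart and it fell by 0.56 ± 0.11 (limma adjusted p = 0.0118) in a host whose change of −0.16 did not pass. The guide snoRNA:Psi18S-1820 lies within Nop60B and was at 11.78, 11.81 and 11.74 in Yki + pan RNAi discs, against 11.73, 11.69 and 11.66 in Yki discs. Its change was 0.08 ± 0.05 (adjusted p = 0.214), beside a fall of its host by 0.41. It was the only guide in Nop60B with a feature of its own. Another 6 features carry Nop60B together with a guide RNA and were not used here. Of them, 4 fell (against 13.4% of all features), with a median change of −0.25. The guide snoRNA:nop5-x16-a, in the overlapping spans of nop5 and x16, fell by 0.38 ± 0.10 (adjusted p = 0.0332), a call that held in 1 of the 6 fits without an array. Whether these guides differed from their hosts was not tested.

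**Figure D4:**
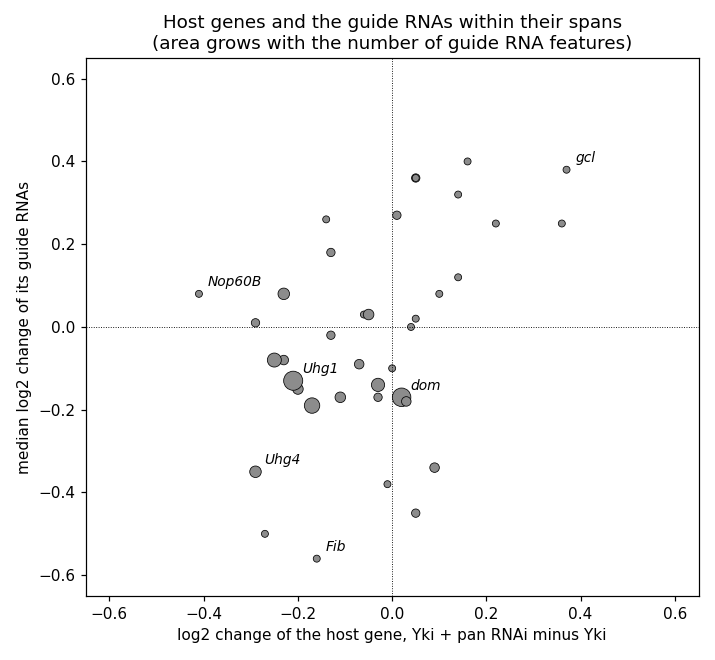
Log2 change of 38 host genes (horizontal axis) against the median log2 change of the guide RNA features within each (vertical axis), Yki + pan RNAi minus Yki, with larger points for more guides. Fib lies low with its guide at −0.56, and Nop60B lies far left with its guide at 0.08. Features that carry Nop60B together with a guide RNA are not shown.

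The genes whose levels over the 6 arrays were most like those of a member were found by Pearson r. Because r was taken over both groups, it largely restates the difference between them and does not measure likeness within a group. For Nop60B they were CG8520 (r = 0.998), the complex I gene ND-MLRQ (0.998) and the mitochondrial ribosomal protein gene mRpL32 (0.998). For NHP2 they were the transporter gene E23 (0.999), the vesicle protein gene Sec22 (0.998) and the homeobox gene ct (0.997), and for Non1 they were Alg9 (0.999), CG15083 (0.997) and brwl (0.997). Many other genes were nearly as alike, with 517, 524 and 420 named genes above an r of 0.95 for Nop60B, NHP2 and Non1.

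Markers of other cell types moved between the groups, and their part in the changes above was not tested. Of the disc epithelium markers, ap rose (0.37 ± 0.04) and nub and rn fell (−1.12 ± 0.09 and −0.70 ± 0.06). All 4 myoblast markers fell, and the sum of their levels on a linear scale was 1045 to 1184 in Yki + pan RNAi discs, against 2254 to 2469 in Yki discs. All 3 measured haemocyte markers rose, with sums of 599 to 829 in Yki + pan RNAi discs, against 348 to 451 in Yki discs. Of 3 tracheal markers, 2 fell (sums of 7310 to 7882 in Yki + pan RNAi discs, against 8835 to 9461 in Yki discs), and of 4 markers of neurons and glia 1 rose (1274 to 1373 in Yki + pan RNAi discs, against 1142 to 1181 in Yki discs). None of the 2 fat body, 2 muscle and 3 sex composition markers measured passed (limma, 2 of these 7 at an unadjusted p under 0.05), and the fat body sums were 171 to 199 in Yki + pan RNAi discs, against 221 to 536 in Yki discs. The dosage compensation RNA roX2 varied within groups, at 6.49, 9.07 and 7.27 in Yki + pan RNAi discs, against 8.56, 7.65 and 7.62 in Yki discs.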

How the data were processed

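The authors deposited log2 expression levels of 11325 features for 6 arrays in 2 tables, whose values differ by at most 5.0e-09. How backgrounds were corrected and arrays normalized was not stated in any source used here. The submitters' design text names limma, with calls at an adjusted p below 0.05 and a log2 change of 1 or more. Features were named from the platform annotation, with symbols updated through Entrez numbers in the RefSeq table of Release 6. There, 10155 features had 1 symbol, 313 several and 857 none. Of these, 17 with 1 symbol but several FlyBase numbers were left unnamed. For 22 genes with several features the brightest on average was kept, which left 11303.

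Groups were compared with limma 3.58.1 (R 4.3.3; lmFit, eBayes, no covariate), with Benjamini-Hochberg adjustment over all 11303 features. The code was tested on simulated data. The members and lists were chosen with earlier results of these data known, and lists are described by counts and medians. Text names all members, the core and assembly genes, and for every other list up to 4 called genes, taken by p-value. The snoRNAs of the rule whose names are bare numbers are given by their host or position. Members of the large subunit list outside this rule (RpLP0-like, CG1542, Noc2, CG11583, Non3) were named after their values were seen. So were Tif-IA, udd, the second G3113 copy, the guides within Nop60B and nop5, and roX2. Planned promoter motifs and protein alignments were not run, since no sequences were used here. Alternatives tried were median centring, quantile normalization, a filter on dim features (means under 7 in both groups), the other table, all features, variance trend, robust eBayes, the replicate number as a block and leaving out each array.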

Additional observations from a re-analysis of the deposited data

How the results depend on the processing

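The calls of Nop60B, NHP2, Nop56 and Non1 kept their direction and side of the threshold in all 14 alternatives, and so did the missing call of Nle. Fib passed in 1 of 14 (the variance trend), and Nopp140 and mod lost their call in 4 each. With each array centred on its median, 3 members and 14 genes of the protein lists fell, and 4 genes of these lists and 6 Psi guides rose. In that fit 9.57% of all features fell and 18.5% rose. Quantile normalization gave 2 rises among the 75 genes of the protein lists and 4 among the 92 Psi guides, while 14.4% of all features rose. With dim features left out or a variance trend, 2 genes of the protein lists rose, while 17.7% and 13.3% of all features rose. Leaving out 1 array gave 3 to 5 members that fell, 12 to 26 falls and 1 to 2 rises in the protein lists, 4 to 15 falls and 0 to 4 rises among Psi guides, and 2 to 11 falls and 1 rise among Me guides. In these fits, which hold fewer samples, 8.66% to 11.3% of all features fell and 6.77% to 10.2% rose. Same-numbered arrays of the groups correlated at −0.13, −0.10 and 0.16 in their deviations from the group means, and differently numbered arrays at −0.28 to 0.34. With 3 arrays per group, these values cannot decide whether the numbers pair the samples. With the replicate block, 10.4% of all features fell and 8.71% rose, against 13.4% and 12.1% without it. In the block fit 5 members fell, 1 rose, and 5 Me guides fell (9.09%), against 9 (16.4%) without the block. Falls in the protein lists numbered 18 with the block (24%, against 30.7% without it). Of the called genes chosen by the naming rule, those that lost their call with it were hoip (adjusted p = 0.0735), CG30349 (0.056), bys (0.0783), Polr1H (0.0859), Rrp46 (0.0593), Uhg1 (0.0711) and the snoRNA in no gene span (0.0536). The other table gave the same values. Signal over background was not analysed here.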

Other observations

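Another 22 features carry a guide RNA symbol beside that of a second gene and entered no count of guides. Of these 22, 5 fell and 0 rose (limma adjusted p of 0.00674 at the lowest), with changes of −0.48 to 0.52 and a median of −0.03. Of all features, 13.4% fell and 12.1% rose. Among the 22, 6 carry Nop60B together with a guide RNA, and 4 of the 6 fell, with changes of −0.41 to −0.10 and a median of −0.25. The signal of the host and of the guide cannot be told apart in these features. The feature that carries pit and a second symbol changed by −0.11 and did not pass (limma adjusted p = 0.126).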
